A study of Saccharomyces cerevisiae BY4741 with 22 samples.

Results

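In yeast, mature 18S rRNA is cut out of a long precursor, and the first nucleotides past its 3′ end belong to the internal transcribed spacer ITS1. The values described here are the 3′ ends of 18S rRNA that fell on those first 10 spacer nucleotides, written as +1 to +10 past the mature end, which lies at nucleotide 2500 of the 35S precursor and is called position 0. The 10 positions were taken by place, with earlier results of these data known. They are 10 out of 101 within 50 nt of the mature end (the window) and out of 6858 in the precursor. An end counted at +4 is taken as an 18S rRNA that keeps 4 nucleotides of spacer. Added bases that match the spacer could not be told from kept ones. The sequence of this stretch was not used here, so no bases and no genome coordinates are given.

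The last step of 18S rRNA maturation takes place in the cytoplasm, where the endonuclease Nob1 cuts the 20S precursor at the boundary between 18S rRNA and ITS1. Pno1 (also called Dim2) is an RNA-binding assembly factor that sits at the 3′ end of 18S rRNA and has to leave before Nob1 can cut. Dim1 is the methyltransferase that dimethylates adjacent adenosines close to that end, and Rps14 is a ribosomal protein of the platform, the region of the small subunit around that end.

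The study used 3′-RACE sequencing, in which a DNA linker is ligated to the 3′ end of the rRNA so that the read records where the RNA ended. All strains were BY4741 derivatives whose own genes stood under the Gal promoter, which glucose medium (YPD) shuts off, and which carried replacement genes on plasmids. In the first group (Pno1 + Dim1-E85A, 8 libraries) the cells were depleted of chromosomal Pno1 and Dim1 and made Pno1 from the TEF promoter and the mutant Dim1-E85A from the Cyc1 promoter. The series names this group its wild-type control although it carries the Dim1 mutant. The second group (Pno1-KKKF + Dim1-E85A, 8 libraries) differed from it in the Pno1 version, and the series describes it as bypassing quality control of ribosome assembly. The third group (Rps14 + Dim1, 2 libraries) was depleted of chromosomal Rps14 and Dim1, made Rps14 from the TEF promoter and unmutated Dim1 from the Cyc1 promoter, and served as the control for Dim1-E85A. It differs from the other groups in the depleted genes as well as in Dim1, which cannot be told apart here.

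The labels call the libraries biological replicates, and the rRNA came from purified 40S subunits. Replicates 1 to 3 of both Pno1 strains grew at 30 °C, and replicates 4 and 5 at 25 °C. These 10 libraries were ligated to a universal linker and their cDNA was purified on gels. Replicates 6 to 8 of both strains, and both Rps14 + Dim1 libraries, grew at 25 °C. They were ligated to a linker holding a unique molecular identifier (UMI) and were purified on beads, so linker and purification changed together. Substantial read depth also began at -40 in the universal libraries and at -61 in the UMI libraries. The most 5′ nucleotides of the window were thus well covered only with the UMI linker. An end was a drop in read depth that was not made up again further 3′, and the windows held 2615352 to 4373659 ends per library. The most frequent end was position 0 in 18 of 18 libraries. Depth never rose between +1 and +11 in any of the 18, so counting every drop gave the same ends at the 10 positions. Skipped nucleotides too rare to raise the depth could still shift ends between neighbouring positions, and this was not tested. In all, 57716 of 55744756 ends lay at +1 to +10. Shares are given in ppm, the ends per 1000000 ends of the window. The widest 95% Wilson interval reached 30.9 ppm to either side for a single position and 69.4 for the sum, and a count of 3 ends corresponds to 0.686 to 1.15 ppm. PCR copies of 1 molecule can be counted more than once, so these limits cover counting error only.

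The summed ends at +1 to +10 were rare in all libraries, and their means differed more between protocols than between strains. At 30 °C the 3 Pno1 libraries had 3587, 1159 and 1276 ppm, and the 3 Pno1-KKKF libraries 2497, 2156 and 1635. At 25 °C with the universal linker Pno1 had 1192 and 620.4 ppm and Pno1-KKKF 1653 and 571. With the UMI linker Pno1 had 401, 473 and 444 ppm, Pno1-KKKF 395, 470.1 and 489, and Rps14 + Dim1 300.3 and 321. Pno1 replicate 1 was the highest of all, and the 2 Rps14 + Dim1 libraries were the lowest of all. Within the UMI protocol the 6 Dim1-E85A libraries spanned 395 to 489 ppm, while the 4 universal libraries at 25 °C spanned 571 to 1653, so these groups did not overlap. As group means the sums were 2007 ± 1369 (SD, n = 3) and 2096 ± 434 (SD, n = 3) ppm at 30 °C for Pno1 and Pno1-KKKF. They were 906 ± 404 and 1112 ± 765 (SD, n = 2 each) at 25 °C with the universal linker. With the UMI linker they were 439 ± 36.3 and 451 ± 50.01 (SD, n = 3 each), and 311 ± 14.8 (SD, n = 2) for Rps14 + Dim1.

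**Figure D1:**
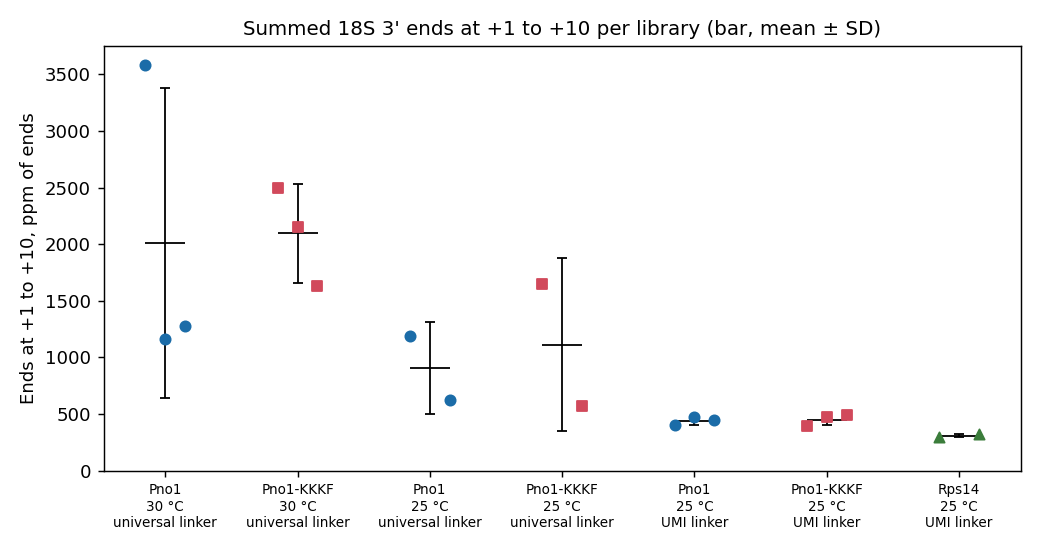
Each point is 1 library of 18S rRNA, the y axis is its ends at +1 to +10 in ppm of the ends within 50 nt of the mature end, and bars give the mean ± SD of the strain and protocol named on the x axis. The 8 UMI libraries lie between 300.3 and 489 ppm, below all 10 universal-linker libraries, and Pno1 replicate 1 stands at 3587.

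The 10 positions were not used alike, and their order differed between the linkers. +1 was the most frequent of the 10 in 14 of 18 libraries, 8 of 8 with the UMI linker and 6 of 10 with the universal linker, and +4 was the most frequent in the other 4. With the universal linker +4 stood above both +3 and +5 in 9 of 10 libraries, and in 6 of 6 at 30 °C. With the UMI linker this held in 0 of 8 libraries, and +3 stood above +2 and +4 in 6 of 8. +10 exceeded +9 and +11 in 18 of 18 libraries, the one local peak that every library shared. The rarest of the 10 was +9 in 9 of 10 universal libraries and +7 in 7 of 8 UMI libraries. Across the logarithms of the 10 group means, Pearson's r as a description was 0.95 or higher between the strains of 1 protocol (0.97 at 30 °C, 0.95 at 25 °C with the universal linker, 0.98 with the UMI linker) and 0.54 to 0.84 between a universal and a UMI group. The points are neighbouring positions of the same libraries.

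At +1, molecules 1 nucleotide too long, the Pno1 libraries had 609, 300.1 and 253 ppm at 30 °C, 306 and 242 at 25 °C with the universal linker and 176, 235 and 215 with the UMI linker. The Pno1-KKKF libraries had 389, 373 and 355, then 306 and 234, then 203, 214 and 242. Rps14 + Dim1 had 190.2 and 193, inside the range of the other UMI libraries. In the UMI libraries +1 stood clear of the rest, since no other position of the 10 passed 60.6 ppm in any of them. At 30 °C +1 and +4 overlapped within both strains. +1 held 20.9% ± 4.55 and 18.2% ± 3.15 (SD, n = 3 each) of the 10 positions' ends at 30 °C in Pno1 and Pno1-KKKF. With the UMI linker it held 47.3% ± 3.03 and 48.8% ± 2.97 (SD, n = 3 each), and in Rps14 + Dim1 61.7% ± 2.31 (SD, n = 2), above each of the 6 Dim1-E85A libraries.

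At +4 the Pno1 libraries had 708, 205 and 222 ppm at 30 °C and 217 and 85 at 25 °C with the universal linker, but 25.9, 26.0 and 27.9 with the UMI linker. Pno1-KKKF had 485, 439 and 329, then 363 and 90.1, then 25.3, 30.9 and 33.7. All 6 UMI libraries of these strains were thus below the lowest universal library at +4. At +10 the spread was smaller, with 135, 118 and 160.2 ppm in Pno1 at 30 °C, 49.7 and 25.1 at 25 °C with the universal linker and 60.6, 38.1 and 41.6 with the UMI linker. Pno1-KKKF had 187, 131 and 83.8, then 47.5 and 24.9, then 41.8, 54.4 and 59.5 at +10. At +10 the linkers overlapped at 25 °C, while the 6 libraries of 30 °C lay above all 10 of 25 °C from these strains.

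**Figure D2:**
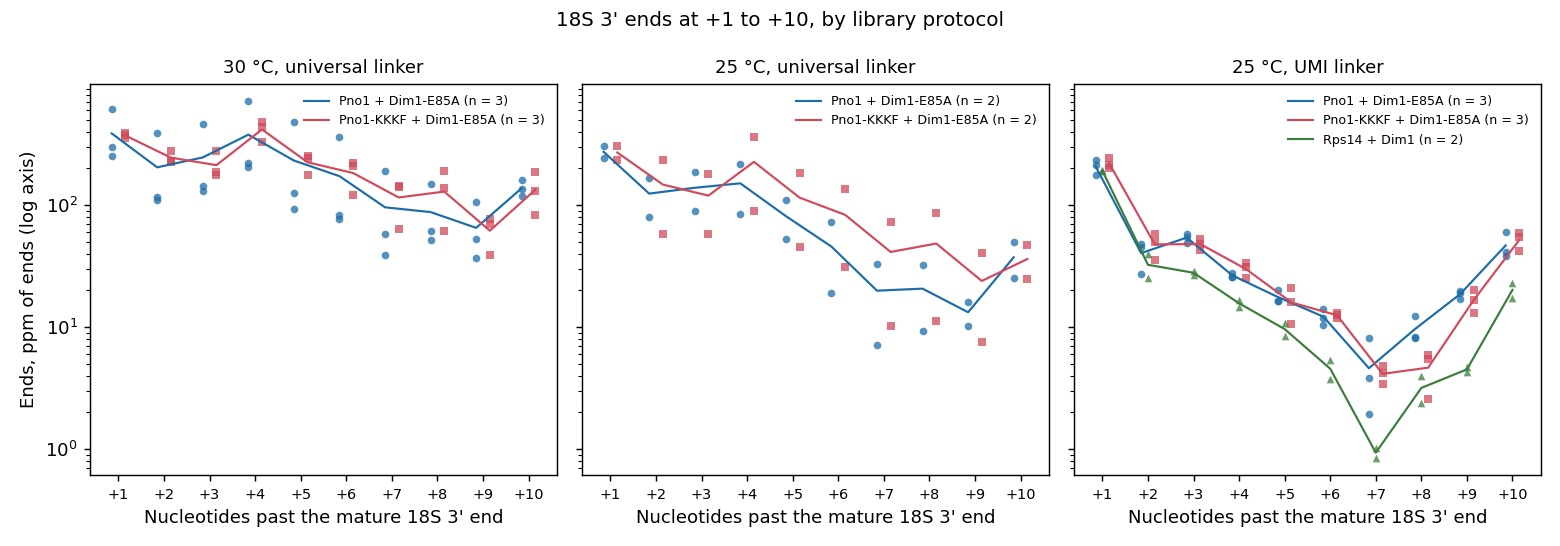
Ends in ppm (log axis) at +1 to +10 past the mature 18S 3′ end, with 1 point per library and lines through the mean of each strain, in 1 panel per protocol. In the universal-linker panels the means decline unevenly from +4 to a low at +9 and rise at +10. The UMI panel is highest at +1, falls unevenly to a low at +7 and rises to +10, where Rps14 + Dim1 stays below the other strains.

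The first comparison asked whether Pno1-KKKF cells carry more 18S rRNA with spacer nucleotides left on. At the 10 positions no difference passed, and the ratio of Pno1-KKKF to Pno1 was highest at +7, with 1.27 (log2 0.35, SE 0.46). From +1 to +10 the log2 differences of Pno1-KKKF over Pno1, with protocol as a term, were 0.00, 0.25, -0.20, 0.26, 0.06, 0.27, 0.35, 0.22, 0.12 and 0.03. The lowest adjusted p among the 10 was 0.719 (edgeR's quasi-likelihood test, Benjamini-Hochberg over 45 positions, 16 libraries), and 0 of 10 reached an unadjusted p under 0.05. Over the whole window 0 of 45 positions passed (0%), with 6 at an unadjusted p under 0.05. The medians of the log2 differences were 0.17 over the 10 and 0.12 over all 45. The 95% intervals (from the SE) were narrowest at +1, from -0.39 to 0.39 on the log2 scale, and widest at +8, from -0.69 to 1.13, so differences within these intervals could not be resolved. The log2 odds of the summed ends differed by 0.15 (SE 0.27), with 0.24 (SE 0.55) for 30 °C, 0.18 (SE 0.90) for the universal linker at 25 °C and 0.036 (SE 0.12) for the UMI linker. Signs at +1 and +10 turned negative under TMM scaling (-0.06 and -0.14), which changed no call.

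Within each protocol 0 of the 10 positions passed as well. The background was 24.4% of 45 positions lower in Pno1-KKKF at 30 °C, 0% at 25 °C with the universal linker and 13.3% higher with the UMI linker. Those 11 lower and 6 higher positions all lay beyond +10. The 11 became 6 without Pno1-KKKF replicate 2. The 6 became 2, 0 and 1 without Pno1 replicate 6, Pno1 replicate 7 and Pno1-KKKF replicate 7, and the 0 at 25 °C with the universal linker became 2 without Pno1 replicate 1 and 4 without Pno1-KKKF replicate 5. Beyond +10, the summed ends at +11 to +50 were 549.8 ± 80.2 ppm for Pno1 and 248 ± 48.2 for Pno1-KKKF at 30 °C. With the UMI linker they were 246 ± 56.1 and 408 ± 80.3 (SD, n = 3 each). The interaction of strain and protocol passed at 0 of the 10 positions, against 22.2% of 45 (10 positions, and 17 without Pno1-KKKF replicate 5, where 1 of the 10 passed). At +8 the 3 Pno1-KKKF libraries with the UMI linker had 2.59, 5.88 and 5.50 ppm and the 3 Pno1 libraries 8.10, 12.4 and 8.25. This was the only position of the 10 where the strains did not overlap within the UMI protocol (2.22% of 45 positions were lower in this way), and its log2 difference of -1.04 (SE 0.75) did not pass (edgeR adjusted p = 0.478).

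The ends at the 10 positions can also be set against all ends at +1 to +50. Extensions longer than 50 nt lie outside the window and are left out. The ends at +1 to +10 made up 75.3% ± 8.98 of the ends at +1 to +50 in Pno1 and 89.3% ± 2.13 in Pno1-KKKF at 30 °C (SD, n = 3 each). At 25 °C with the universal linker the values were 89.9% ± 4.18 and 89.9% ± 5.64 (SD, n = 2 each). With the UMI linker they were 64.2% ± 7.12 and 52.7% ± 4.15 (SD, n = 3 each), and 93.3% ± 2.30 (SD, n = 2) in Rps14 + Dim1. The 2 Rps14 + Dim1 libraries had 91.7% and 95.0%, above each of the 6 Dim1-E85A libraries of that protocol.

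The second comparison, the control for Dim1-E85A, set Rps14 + Dim1 against both Dim1-E85A strains within the UMI protocol. Ends at +3, +4, +6, +7, +9 and +10 were less frequent in the Rps14 + Dim1 cells than in either Dim1-E85A strain, and those at +5 and +8 passed against Pno1 but not against Pno1-KKKF. At +9 Rps14 + Dim1 had 4.76 and 4.26 ppm, against 19.8, 19 and 17.1 in Pno1 and 16.8, 20.2 and 13.1 in Pno1-KKKF. At +6 it had 3.74 and 5.40, against 12, 14.1 and 10.5 in Pno1 and 12, 12.5 and 13.1 in Pno1-KKKF. At +10 it had 23.1 and 17.3, against the 38.1 to 60.6 of the 6 Dim1-E85A libraries. Both Rps14 + Dim1 libraries lay below all 6 at these 3 positions and also at +3, +4 and +7, which makes 6 of the 10, with 61.2% of 49 positions in the window lower in this way.

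Against Pno1, 8 of the 10 positions were lower in Rps14 + Dim1 (+3 to +10) and 0 higher, in edgeR's quasi-likelihood test over 49 positions, of which 63.3% were lower and 2.04% higher. The fall was 4.12-fold at +9 (log2 -2.04, SE 0.28, adjusted p = 0.000573), 2.64-fold at +6 (log2 -1.40, SE 0.27, adjusted p = 0.00166) and 1.69-fold at +4 (log2 -0.76, SE 0.24, adjusted p = 0.0195). Against Pno1-KKKF 6 of the 10 were lower (+3, +4, +6, +7, +9 and +10), again with 63.3% of 49 lower. There +9 fell 3.69-fold (log2 -1.88, SE 0.28, adjusted p = 0.000371). The 2 comparisons share the Rps14 + Dim1 libraries. At +7 each Rps14 + Dim1 library held only 3 ends, 6 in all. With ends pooled over the libraries of each group, the ratio to Pno1 was 0.196 (exact counting interval 0.0684 to 0.460). To Pno1-KKKF it was 0.225 (interval 0.0774 to 0.539). These intervals leave out the spread between libraries. The Pno1 libraries held 6, 28 and 12 ends at +7, and the Pno1-KKKF libraries 13, 13 and 10.

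+1 and +2 did not pass in either comparison. Their log2 differences were -0.12 (SE 0.22) and -0.31 (SE 0.36) against Pno1 and -0.20 (SE 0.22) and -0.55 (SE 0.36) against Pno1-KKKF. Whether +1 responded less than +9 was not tested. These counts of 8 and 6 of the 10 stand beside 63.3% over the window and show nothing particular to the 10 positions. The window share mixes unlike regions. Beyond +10 all 22 tested positions were lower in both comparisons, with median log2 differences of -4.32 and -5.33 against -1.08 and -0.85 over the 10. On the 5′ side of position 0, 1 of 16 tested positions was lower against Pno1 and 3 of 16 against Pno1-KKKF, with 1 higher in each. The medians there were -0.11 and -0.43. As a description, the mean position of the ends within the 10 was 2.43 ± 0.0737 nt (SD, n = 2) in Rps14 + Dim1, against 3.35 ± 0.371 and 3.25 ± 0.107 nt (SD, n = 3 each). Without Rps14 + Dim1 replicate 1 or replicate 2 the count against Pno1 was 4 in each case, and against Pno1-KKKF it was 3 and 4. Each of these fits leaves 1 Rps14 + Dim1 library, which is assumed to vary like the other groups. Under TMM scaling, which raised position 0 by 0.43 and 0.77 (log2), 3 positions passed as lower against Pno1 and none as lower against Pno1-KKKF, and +1 and +2 turned positive in both comparisons, +5 and +8 also against Pno1-KKKF. Against Pno1-KKKF +1 then passed as higher (log2 0.57, adjusted p = 0.0304), and with DESeq2's default size factors it passed as higher in both comparisons (log2 0.51 and 0.71, adjusted p = 0.00232 and 1.53e-05).

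The third comparison took the 10 universal-linker libraries of both strains by growth temperature. Ends at +4 to +10 were less frequent at 25 °C than at 30 °C, and +1 to +3 did not pass. At +10 the 4 libraries of 25 °C had 49.7, 25.1, 47.5 and 24.9 ppm, all below the lowest of the 6 libraries of 30 °C (83.8). +10 was the 1 position of the 10 where the temperatures did not overlap (31.1% of 45 positions were lower in this way). At +9 the 25 °C libraries had 16.2, 10.3, 40.3 and 7.55 ppm, and those of 30 °C 105, 37.0, 53.1, 76.4, 69.9 and 39.1, with Pno1-KKKF replicate 4 above 2 of the 30 °C libraries.

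At 25 °C 7 of the 10 positions were lower (+4 to +10) and 0 higher, against 57.8% of 45 positions lower (edgeR's quasi-likelihood test in the 16-library fit). The ratio of 30 °C to 25 °C was 1.40 at +1 (log2 -0.48, SE 0.26, adjusted p = 0.125, not past the threshold), 2.14 at +4 (log2 -1.10, SE 0.42, adjusted p = 0.0335) and 3.70 at +10 (log2 -1.89, SE 0.33, adjusted p = 0.00023). At +9 it was 3.48 (log2 -1.80, SE 0.44, adjusted p = 0.00262). Whether the fall differed between positions was not tested. The mean position of the ends within the 10 was 0.93 nt (SE 0.23) nearer to the mature end at 25 °C. The medians of the log2 differences were -1.36 over the 10 and -1.22 over all 45, and nothing particular to the 10 is read from their count. The 45 mix unlike regions, with 17 of 19 tested positions lower beyond +10 (median -1.80). On the 5′ side of position 0, 2 of 15 were lower and 0 higher (median -0.15). The labels do not say whether the libraries of both temperatures were prepared together.

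Individual libraries weighed on this count, and the 26 lower positions of the window became 16 without Pno1 replicate 5. Of the 10 positions, 4 passed without Pno1 replicate 1, 2 without Pno1 replicate 5, 4 without Pno1-KKKF replicate 1 and 3 without Pno1-KKKF replicate 5, while +9 and +10 passed whichever of the 16 libraries was left out. In a two-sided exact permutation test with labels exchanged within strain (100 arrangements, smallest possible p = 0.01) 4 of the 10 passed after adjustment over 45 positions (+7 to +10). Under TMM scaling and DESeq2's default size factors, which raised position 0 by 0.76 and 0.98 (log2), +1 to +3 turned positive and +9 and +10 stayed lower and past the threshold. With the default size factors +1 passed as higher at 25 °C (log2 0.51, adjusted p = 0.0475).

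The fourth comparison set the UMI linker with bead purification against the universal linker with gel purification, at 25 °C in both Pno1 strains. Read depth also began further 5′ in the UMI libraries, and these differences cannot be told apart. Ends in the middle of the 10 positions were several-fold rarer in the UMI libraries, while at +1, +9 and +10 no difference passed. At +5 the UMI libraries had 20.1, 16.4 and 16.5 ppm in Pno1 and 10.7, 20.9 and 16.2 in Pno1-KKKF, against 110.2 and 52.5 and 185 and 45.5 with the universal linker. At +9 they had 13.1 to 20.2 ppm, within the 7.55 to 40.3 of the universal libraries.

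With the UMI linker 7 of the 10 positions were lower (+2 to +8) and 0 higher. Over all 45 positions 37.8% were lower and 44.4% higher. The fall was 6.58-fold at +4 (log2 -2.72, SE 0.41, adjusted p = 3.11e-05, edgeR), 5.81-fold at +5 (log2 -2.54, SE 0.45, adjusted p = 0.00012) and 3.08-fold at +2 (log2 -1.62, SE 0.41, adjusted p = 0.00144). The log2 differences were -0.34 (SE 0.26) at +1, -0.04 (SE 0.42) at +9 and 0.42 (SE 0.31) at +10, and none of these 3 passed. In the two-sided exact permutation test within strain, 8 of the 10 passed as lower, with +1 added (adjusted p = 0.0439). The linkers did not overlap at +2, +4, +5 and +6 (28.9% of 45 positions were lower in this way). The count stayed at 7 whichever library was left out. Beyond +10, 17 of 19 tested positions were higher with the UMI linker, with a median log2 difference of 1.98, against -1.90 over the 10. On the 5′ side of position 0, 10 of 15 tested positions were lower and 2 higher, with a median of -1.21. The lower share was thus not confined to the 10 positions. The window held 2928249 to 4373659 ends per universal library at 25 °C and 2720964 to 3466530 per UMI library of these strains. Removal of UMI duplicates is not described, so the numbers of molecules behind the linkers cannot be compared.

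**Figure D3:**
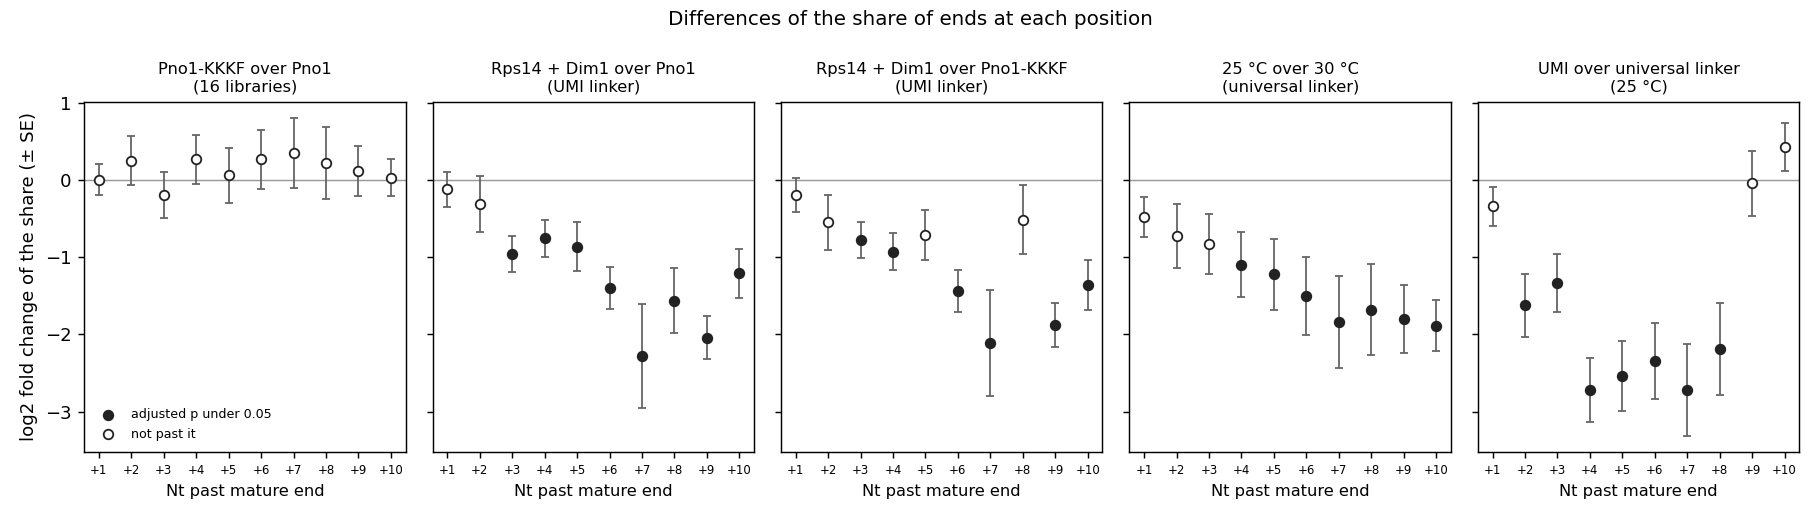
log2 fold change (± SE, edgeR) of the share of ends at +1 to +10 in the 5 comparisons, with filled points past an adjusted p of 0.05 over all positions of the window. The strain panel stays near 0, the Rps14 + Dim1 panels are lowest at +7, the temperature panel at +10, and the linker panel dips from +2 to +8 and returns to -0.04 at +9.

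The first 10 nucleotides past mature 25S rRNA, in 4 libraries of the 30 °C universal protocol, gave the same measurement at another rRNA. Their summed ends were 7919 and 8796 ppm in Pno1 and 8268 and 8129 in Pno1-KKKF, all above the 1159 to 3587 of the 6 18S libraries of that protocol. The 25S ends were mostly at +1, with 5635 ± 46.5 ppm for Pno1 and 5414 ± 62.4 for the mutant (SD, n = 2 each). At +10 each 25S library held 1 end, below the level of 3 ends, where 18S rRNA had its shared local peak of 138 ± 21.2 and 134 ± 51.8 ppm (SD, n = 3 each). The rRNAs were copied with different primers, and no test was made between them.

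Ends just on the other side of position 0 were more frequent than those on the first 10 nucleotides of ITS1. The 10 positions from -10 to -1, 18S molecules slightly too short, held 8.70 to 17.8 times the ends of +1 to +10 in the Pno1 libraries at 30 °C and 10.6 to 16.2 times in Pno1-KKKF. For the universal linker at 25 °C the ratio was 14.9 to 25 in Pno1 and 27.7 to 36.2, the highest, in Pno1-KKKF. With the UMI linker it was 16.6 to 25.1 in Pno1, 24.2 to 27.4 in Pno1-KKKF and 25.5 to 30.4 in Rps14 + Dim1. In each of the 18 libraries more ends lay just inside the mature rRNA than just beyond it.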

How the data were processed

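The authors deposited whole-number read depth (unit: counts) per nucleotide of the 35S precursor for each library, aligned to the reference named in the file headers. Per the submitters' processing notes, Bowtie2 2.2.9, UMI-tools 1.1.2, cutadapt 3.5 and Trim Galore 0.6.1 were among the tools. No settings for these, nor any removal of UMI duplicates, are described in the labels. The mature end was set at nucleotide 2500 of the precursor, and the RefSeq gene table (assembly R64) was read for gene lengths only.

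Ends were lasting drops of depth, found with the running maximum from the 3′ side. Library size was the number of ends in the window. Each position's ends went into the quasi-likelihood test of edgeR 4.0.16 (R 4.3.3), on positions with at least 10 ends in at least 3 libraries (2 in the UMI fit), with Benjamini-Hochberg adjustment at 0.05. Strain, temperature and linker came from 1 fit of 16 libraries, and Rps14 + Dim1 from a fit of the 8 UMI libraries. Log2 odds of the sum used 0.5 added to both counts and have no test. The rule for ends and the edgeR test were also run on simulated data. Skipped nucleotides were simulated only 5′ of the mature end, so that run could not test their effect at +1 to +10. The simulated counts had a fixed spread that was not taken from the libraries, so neither run is used as support. Alternatives were the other rule for ends, TMM, DESeq2 1.42.0, no filter, a window of 20 nt, the mean position without +1, only the groups compared, a replicate block, and each library left out. All 10 positions are named. Positions and comparisons were chosen with earlier results of these data known, and the exact permutation tests were added after seeing the data.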

Additional observations from a re-analysis of the deposited data

Results flagged for a closer look

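Pno1 replicate 1, grown at 30 °C, stood far above the other 7 Pno1 libraries at 9 of the 10 positions, by a gap that was large against the range of the group. In ppm of ends, its values were 608.6 at +1, 386.7 at +2, 464.6 at +3, 708.0 at +4, 478.3 at +5, 358.9 at +6, 191.0 at +7, 150.3 at +8 and 105.4 at +9. Its sum over +1 to +10 was 3587. At +10 it was not the highest of its group, with 135 against 160.2 ppm in replicate 3. In all, 10 of 24 groups tested this way had such a library, the sum included. No chance rate is given beside this, since the groups mix protocols and the positions of 1 library are not independent of each other. The Pno1 group mixes 3 protocols, and its 2 other libraries of 30 °C had sums of 1159 and 1276. Without this library the strain comparison still had 0 positions past the threshold, and the temperature comparison had 4 in place of 7.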

How the results depend on the processing

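The 180 values of ends did not differ between the rules for ends, so that rule moved only the window total. Position counts without 1 library each ranged from 4 to 8 for Rps14 + Dim1 against Pno1, 3 to 6 against Pno1-KKKF, 2 to 9 for temperature and 0 to 1 for the interaction (1 without Pno1-KKKF replicate 5). TMM and DESeq2's default size factors gave 3 and 2 against Pno1 (8 as reported), 1 and 2 against Pno1-KKKF (6) and 2 and 3 for temperature (7). Those reported were all lower, and of these the lower calls were 3 and 1, 0 and 1, and 2 and 2, the others being +1 as higher. Default size factors gave 1 for the interaction (0). Temperature gave 4 with only the groups compared and 4 in the exact permutation test. Without +1 the mean position differed by -0.66 nt for Rps14 + Dim1 against Pno1-KKKF and by 0.96 nt for UMI against universal, in place of -0.83 and -0.093. Over all positions the temperature calls fell from 26 to 17 with TMM. Within protocols, TMM gave 7 in place of 11 at 30 °C, 3 in place of 0 at 25 °C with the universal linker (default size factors also 3) and 0 in place of 6 with the UMI linker (default size factors 0, no filter 3), and the interaction calls went from 10 to 0 and 6.

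Both scalings moved position 0, by 0.43 and 0.62 against Pno1, 0.77 and 0.91 against Pno1-KKKF and 0.76 and 0.98 for temperature, and these log2 differences changed sign with them (TMM, then default size factors). Against Pno1, +1 became 0.33 and 0.51, and +2 0.10 and 0.31. Against Pno1-KKKF, +1 became 0.57 and 0.71, +2 0.15 and 0.34, +5 0.0079 and 0.19, +8 0.17 and 0.37, and +3 0.12 with default size factors. For temperature, +1 became 0.36 and 0.51, +2 0.11 and 0.15, and +3 0.018 and 0.084. For the linker, +9 became 0.081 and 0.18, 0.22 in the permutation test, and -0.30 to 0.70 without 1 library. For the strains, +1 became -0.060 with TMM, and +10 -0.14 and -0.0048. Without 1 library the strain differences ranged from -0.069 to 0.16 at +1, -0.37 to 0.070 at +3, -0.23 to 0.43 at +5, -0.049 to 0.67 at +6, -0.096 to 0.73 at +7, -0.27 to 0.43 at +8, -0.23 to 0.31 at +9 and -0.068 to 0.14 at +10, with 0 calls throughout. The cause of these changes was not tested.

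Same-numbered libraries of the strains share a number and a protocol, and whether they were paired could not be decided. Their deviations from the means of strain and protocol correlated from -0.35 to 0.44. These means rest on 2 or 3 libraries, and with 2 the deviations mirror each other (0.44 for both replicates 4 and 5). With the replicate block 0 of the 10 positions passed, and the log2 odds differed by 0.15, as without it. The Rps14 + Dim1 libraries share no number with the UMI libraries they were compared with.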
